A study of Mus musculus with 6 samples.

Results

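The mitochondrially encoded transcripts were taken as every gene of the deposited table of all pools whose symbol starts with mt-, which gave 37 of its 40481 genes. They are 13 mRNA genes, 2 rRNA genes and 22 tRNA genes, and all 37 are annotated on the mitochondrial chromosome (MT) of the GRCm38 build, 28 on its plus strand and 9 on its minus strand. Liver RNA-Seq was done on 3 RNA pools of the control and 3 of the *Mttp-IKO* genotype. All mice were male Mttp f/f Villin Cre ERT2 animals on the C57BL/6 background, 12 to 16 weeks old, and all had eaten a methionine- and choline-deficient (MCD) diet for 3 weeks. *Mttp-IKO* mice had received tamoxifen on 5 days, which removes Mttp, the microsomal triglyceride transfer protein gene, where the Villin promoter drives the Cre recombinase, that is in the intestinal epithelium and not in the liver measured here. Control mice were littermates given vehicle, called wild type in the labels, and so carried the same floxed alleles and Cre without tamoxifen. Tamoxifen and the loss of Mttp thus go together and cannot be told apart here. The diet began 3 weeks after tamoxifen or vehicle, and livers were taken after a fast of 4 to 6 hours (4 in the labels). Each pool mixed RNA of 3 to 4 mice, so a replicate here is a pool, and p-values measure the spread between these pools, which is smaller than that between mice. The pool size is that of the methods, and the design text names 12 livers without saying clearly whether these are all or those of 1 genotype. The comparison asks whether a block of chylomicron assembly in the intestine goes with a different level of mitochondrial transcripts in the liver.

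The mitochondrial genome is a small circle of DNA that encodes a few subunits of the respiratory chain and of ATP synthase, and the rRNAs and tRNAs needed to translate them inside the organelle. Both strands are transcribed into long RNAs, from which the tRNAs are cut out, and this releases the mRNAs and rRNAs that lie between them, so the amounts of the single RNAs depend on cutting and decay as well as on transcription. Liver cells are rich in mitochondria, where fatty acids are oxidised. Stretches of mitochondrial DNA have also been copied into the nuclear chromosomes during evolution, and reads from such stretches can fit both places.

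That last point bears on these values, because the authors counted only reads that aligned at a single place and to a single gene. Each mitochondrial transcript was therefore cut into all its windows of 50 bases, and each window was looked for, on either strand, in the transcripts of genes outside the mitochondrial genome in GENCODE release M21 (GRCm38). The share of windows found was 100% for mt-Co2, 99.9% for mt-Co3, 99.5% for mt-Atp6, 98.8% for mt-Nd4l and 98.0% for mt-Nd3. It was 62.2% for mt-Nd4 and 51.1% for mt-Co1, 8.19% for mt-Nd2 and 7.61% for mt-Nd5, and 0% for mt-Nd1, mt-Cytb, mt-Nd6 and mt-Atp8. Of the RNAs that are not translated, mt-Rnr2 had 1.04% and mt-Rnr1 and the tRNA genes had 0%. The share depends on the window length. With windows of 100 bases it was 60.8% for mt-Nd4, 30.8% for mt-Co1, 3.19% for mt-Nd2 and 0% for mt-Nd5. From mt-Co2 to mt-Nd3, the genes named first, it stayed at 97.6% or more.

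Most of the shared windows lie in 7 pseudogenes side by side on chromosome 1 (24611535 to 24616197, minus strand). Gm28661 repeats 681 bases of mt-Co2, Gm10925 repeats 678 bases of mt-Atp6, Gm28437 repeats 783 bases of mt-Co3, Gm10222 repeats 294 bases of mt-Nd4l and Gm28439 repeats 876 bases of mt-Nd4, each with 0 differences. Gm28438 differs from mt-Nd3 at 1 of 345 bases (T3C, counted from the first base of mt-Nd3, mitochondrial base first) and Gm29216 from mt-Co1 at 6 of 492. A pair on chromosome 2 differs more, Gm13341 at 16 of the 672 bases aligned with mt-Co2 (beside 12 gap bases) and Gm13340 at 37 of the 1545 aligned with mt-Co1. A stretch of mt-Co2 shows both kinds of copy. The lines below give bases 457 to 526 of mt-Co2 (MT, 7469 to 7538, plus strand), the same stretch of Gm28661 (chromosome 1, 24615040 to 24615109, minus strand) and of Gm13341 (chromosome 2, 22587449 to 22587518, minus strand), with the positions at which Gm13341 differs in capitals.
mt-Co2: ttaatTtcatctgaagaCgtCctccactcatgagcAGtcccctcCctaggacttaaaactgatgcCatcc
Gm28661: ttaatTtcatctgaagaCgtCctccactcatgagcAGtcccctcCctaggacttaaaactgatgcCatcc
Gm13341: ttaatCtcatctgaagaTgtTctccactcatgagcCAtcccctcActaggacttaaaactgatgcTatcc
In this stretch of 70 bases Gm13341 carries 7 substitutions (T462C, C474T, C477T, A492C, G493A, C501A and C522T, counted from the first base of mt-Co2), while Gm28661 cannot be told from the mitochondrial gene. The sequences are those of the GENCODE M21 transcripts.

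The pools held 25271585 to 36238734 reads on genes, and a gene with 0 reads may still have a level of 3 reads, or 0.0828 to 0.119 CPM (read counts relative to the library's total), and this limit allows for counting error alone. Levels below are CPM scaled by TMM, edgeR's correction for library composition, and genotypes were compared by edgeR's quasi-likelihood test with Benjamini-Hochberg adjustment over the 17287 genes that passed its filter on low counts. *Mttp-IKO* pool 3 stands apart: small RNA genes took 0.298% of its reads against 1.92% to 3.51% in the other pools, and of its reads on nuclear mRNA genes 1.35% fell on transcripts of 300 to 1000 nt, against 3.19% to 3.83%. Results are therefore also given without it. In bulk liver RNA, fewer cells of a type and less RNA per cell cannot be told apart. The 7 hepatocyte markers found were present in all pools (summed level 64337 to 100452 CPM in control and 125880 to 174902 CPM in *Mttp-IKO* pools).

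The mRNA genes made up nearly all of the mitochondrial reads, with 6089508 of 6098330 over the 6 pools, against 5962 on the rRNA genes and 2860 on the tRNA genes. They took 3.00%, 3.20% and 3.14% of the reads in control pools 1 to 3 and 2.95%, 3.51% and 3.33% in *Mttp-IKO* pools 1 to 3. The means were 3.11% ± 0.105 and 3.27% ± 0.287 (SD, n = 3 pools each), and the genotypes overlapped. The rRNA genes took 0.00689%, 0.00219% and 0.00138% in control pools and 0.000463%, 0.00144% and 0.00658% in *Mttp-IKO* pools, so the highest pool had 14.9 times the share of the lowest, with one pool of each genotype far above the rest. The tRNA genes took 0.00115%, 0.00125% and 0.000880% in control pools and 0.00232%, 0.00218% and 0.00115% in *Mttp-IKO* pools, where pool 3 lay inside the control range and the others above it.

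**Figure D1:**
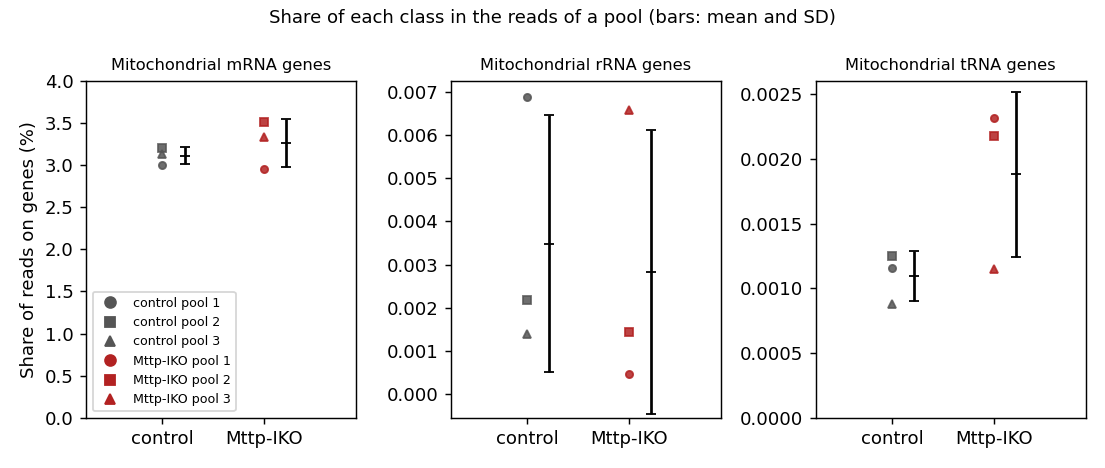
Share of the reads on genes (%) that fell on mitochondrial mRNA, rRNA and tRNA genes in each pool, with a vertical scale of its own in each panel. Points are pools, and bars show the mean and SD of 3 pools. The mRNA share lies between 2.95% and 3.51% in all pools, whereas the rRNA share is high in control pool 1 (0.00689%) and *Mttp-IKO* pool 3 (0.00658%).

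Of the 37 genes, 18 passed the filter and were tested, namely all 13 mRNA genes, both rRNA genes and 3 tRNA genes. None had an adjusted p under 0.05 by edgeR, where 4.01% of all genes tested did (0.920% higher and 3.09% lower). At an unadjusted p under 0.05 there were 3 (mt-Atp8, mt-Nd3 and mt-Tp), beside 23.0% of all genes. By adjusted p, limma-voom called 0, where it called 2.48% of all genes, and DESeq2 called these same 3, where it called 11.5% of all genes. In simulated counts with 200 changed genes, DESeq2 called 47 unchanged genes, against 13 by edgeR and 11 by limma-voom. The fitted log2 fold change (*Mttp-IKO* against control) was above 0 for 16 of the 18 and below 0 for mt-Rnr1 and mt-Cytb. In 4 genes (mt-Nd1, mt-Atp8, mt-Nd3 and mt-Nd5), 22.2% of those tested, every *Mttp-IKO* pool lay above every control pool, which held for 14.5% of all genes. In 0 genes did every *Mttp-IKO* pool lie below, against 16.5% of all genes, so that 31.0% of all genes had no overlap in either direction. The median log2 fold change was 0.19 over the mRNA genes, -0.093 over the rRNA genes and 0.29 over the 3 tRNA genes, beside 0.0057 over all genes tested. Scaling moved these medians together: with total counts only, the median over all genes was -0.17 and that over the mRNA genes 0.014, so the mRNA genes lay above all genes by a like distance under both.

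**Figure D2:**
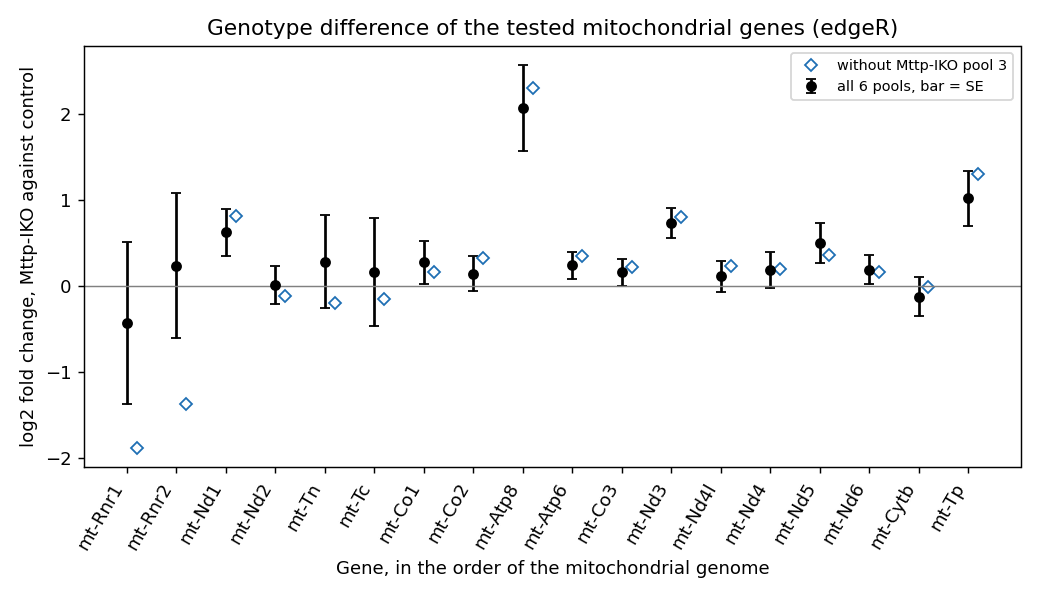
Fitted log2 fold change (*Mttp-IKO* against control, edgeR) of the 18 tested genes in the order of the mitochondrial genome. Filled points with bars are the fit to all 6 pools and its standard error, and open diamonds the fit without *Mttp-IKO* pool 3. mt-Atp8 is highest at 2.07, mt-Tp follows at 1.02, and mt-Rnr1 and mt-Rnr2 drop to -1.88 and -1.36 without that pool.

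Per kilobase of gene length, the mRNA genes ranged from 6642 CPM for mt-Co1 to 11.6 CPM for mt-Atp8 (means of 6 pools). After mt-Co1 came mt-Cytb with 5949, mt-Nd1 with 5323, mt-Nd5 with 2424, mt-Nd2 with 2272, mt-Nd4 with 1742 and mt-Nd6 with 1020 CPM per kb. A wide gap separated these from mt-Co2 with 141, mt-Atp6 with 94.2, mt-Nd4l with 77.2, mt-Co3 with 54.8 and mt-Nd3 with 51.7 CPM per kb. Neighbours in the upper part of the order were not all separated by more than their spread. mt-Co1 had 6001 ± 613 and mt-Cytb 6193 ± 362 CPM per kb in control pools, against 7283 ± 1297 and 5705 ± 907 in *Mttp-IKO* pools, so their order turned between genotypes with SDs that met. mt-Nd1 had 4185 ± 407 CPM per kb in control and 6462 ± 2081 in *Mttp-IKO* pools, so it ranked below mt-Cytb in the first and above it in the second, there with SDs that met. mt-Nd5 and mt-Nd2 had 2006 ± 120 and 2259 ± 103 CPM per kb in the control pools and 2841 ± 561 and 2284 ± 460 in the *Mttp-IKO* pools.

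**Figure D3:**
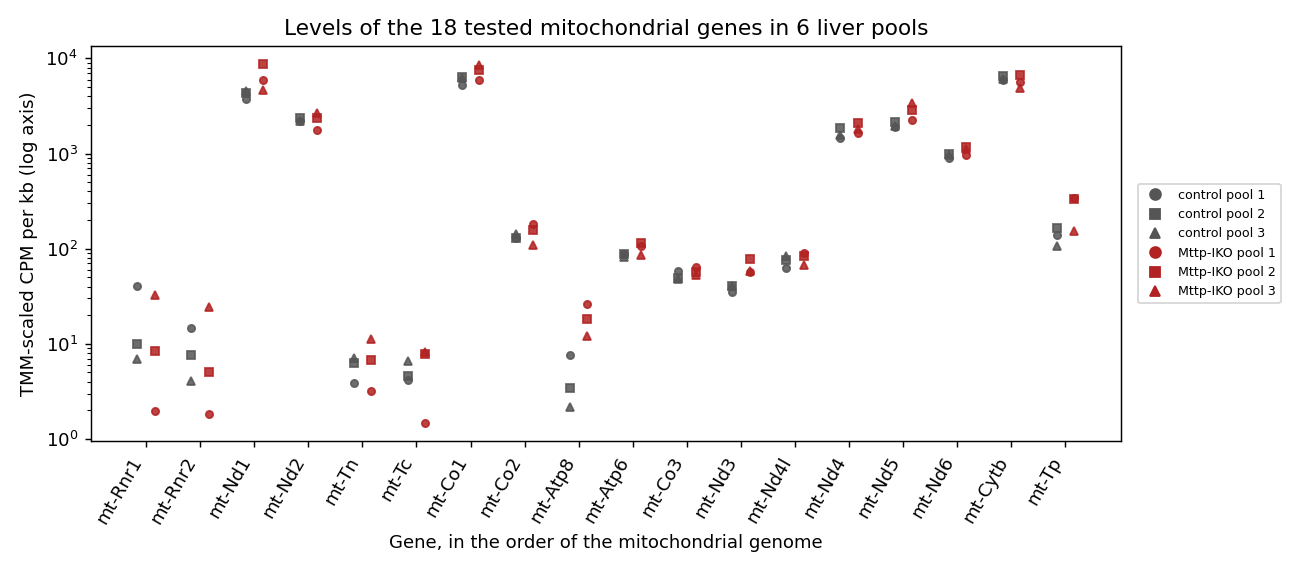
Level of each tested mitochondrial gene in each pool (TMM-scaled CPM per kb of gene length, log axis), in the order of the genome. Gray symbols are control and red symbols *Mttp-IKO* pools, with the same symbol for the same pool number. The 7 highest mRNA genes have means of at least 1020 CPM per kb, and mt-Co2, mt-Atp6, mt-Co3, mt-Nd3 and mt-Nd4l lie between 51.7 and 141 CPM per kb.

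The 5 mRNA genes with at least 90% of their windows in nuclear copies are the 5 at 51.7 to 141 CPM per kb. The 6 genes with under 10% had at least 1020 CPM per kb, except mt-Atp8. Over all 13 genes Spearman's rho of level with shared windows was -0.41, as a description only, since the genes come from the same libraries and lie next to each other. The level of the highly shared genes is thus that of the reads which a single place and a single gene could claim, and is no measure of how abundant these mRNAs are. Their differences between genotypes can also hold reads of the copies, and the reverse.

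**Figure D4:**
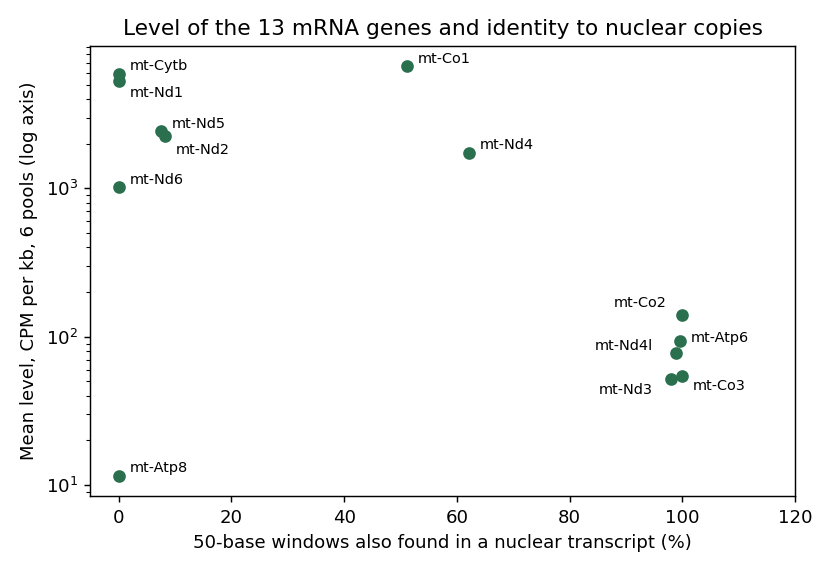
Mean level of the 13 mRNA genes over 6 pools (CPM per kb, log axis) against the share of their 50-base windows found in nuclear transcripts (%). Each point is a gene. The 5 genes at 98.0% or more sit at 51.7 to 141 CPM per kb, mt-Co1 and mt-Nd4 with 51.1% and 62.2% are high, and mt-Atp8 is the low gene at 0%.

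Complex I, which takes electrons from NADH, holds 7 mitochondrially encoded subunits. All 7 had a fitted log2 fold change above 0, with a median of 0.19. This was not particular to complex I: the 3 genes of complex IV (median 0.16) and, in all, 12 of the 13 mRNA genes were above 0. mt-Nd1 (ENSMUSG00000064341, MT 2751 to 3707), a membrane subunit, had 3565, 4139 and 4310 CPM in the control pools and 5676, 8380 and 4496 CPM in the *Mttp-IKO* pools. All *Mttp-IKO* pools were above all control pools, pool 3 by little. The log2 fold change was 0.63 (SE 0.279, adjusted p = 0.227, edgeR).

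mt-Nd3 (ENSMUSG00000064360, MT 9459 to 9806), a small subunit at the hinge between the arms of the complex, had 12.2, 14.3 and 14.1 CPM in the control pools and 20.0, 27.1 and 20.4 CPM in the *Mttp-IKO* pools, from 451 to 789 reads per pool. The genotypes did not overlap, and the log2 fold change was 0.74 (SE 0.178, adjusted p = 0.0619, edgeR). It passed the threshold under 2 of the 15 alternatives, DESeq2 and the fit without *Mttp-IKO* pool 3 (adjusted p = 0.0475, edgeR), and adjusted p ranged from 0.00802 to 0.246 over all 15. Since 98.0% of its windows are in Gm28438, the sum of both genes was also taken. It was 17.5, 19.5 and 18.0 CPM in control and 27.3, 32.1 and 25.0 CPM in *Mttp-IKO* pools, again without overlap. Most of this sum was mt-Nd3 itself. Reads that fit both places were counted for neither gene, so sums of this kind, here and below, do not recover them. Gm28438 alone had 4.82 ± 0.766 CPM in control and 5.67 ± 1.48 CPM in *Mttp-IKO* pools, with overlap (log2 fold change 0.23, SE 0.253, adjusted p = 0.616, edgeR).

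mt-Nd5 (ENSMUSG00000064367, MT 11742 to 13565), one of the proton-pumping subunits, had 3499, 3909 and 3570.1 CPM in the control pools and 4110.2, 5287 and 6147 CPM in the *Mttp-IKO* pools. These did not overlap, the log2 fold change was 0.50 (SE 0.231, adjusted p = 0.242, edgeR), and pool 3 was the highest. mt-Nd6 (ENSMUSG00000064368, MT 13552 to 14070), the mRNA gene on the minus strand, overlaps mt-Nd5 by 14 bases and had 461, 518 and 502 CPM against 505, 606 and 584 CPM. Control pool 2 lay above *Mttp-IKO* pool 1, and the log2 fold change was 0.19 (SE 0.171, adjusted p = 0.531, edgeR). Since the sources used here do not say whether the counting used the strand, its level may include reads of the opposite precursor.

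mt-Nd2 (ENSMUSG00000064345) had 2262, 2465 and 2306 CPM in the control pools and 1849, 2479 and 2785 CPM in the *Mttp-IKO* pools, with the *Mttp-IKO* pools on both sides of the control pools and a log2 fold change of 0.016 (SE 0.221, adjusted p = 0.974, edgeR) whose sign depends on the setting. mt-Nd4 (ENSMUSG00000064363) had 2003, 2577 and 2157 CPM against 2288, 2861 and 2520.25 CPM (log2 fold change 0.19, SE 0.209). mt-Nd4l (ENSMUSG00000065947), which overlaps mt-Nd4 by 7 bases, had 18.4, 22.5 and 25.0 CPM against 26.6, 25.0 and 20.0 CPM (log2 fold change 0.12, SE 0.181). All 3 are membrane subunits whose pools overlapped between genotypes.

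mt-Cytb (ENSMUSG00000064370, MT 14145 to 15288) encodes cytochrome b, the only subunit of complex III from this genome, and was the mRNA gene with a fitted value below 0. It had 6729, 7538 and 6986 CPM in the control pools and 6416, 7615 and 5547 CPM in the *Mttp-IKO* pools. *Mttp-IKO* pool 2 was the highest of all and pool 3 the lowest, and the log2 fold change was -0.12 (SE 0.227, adjusted p = 0.794, edgeR), or -0.012 without pool 3.

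Complex IV, cytochrome c oxidase, which passes the electrons to oxygen, has its catalytic core from this genome. mt-Co1 (ENSMUSG00000064351, MT 5328 to 6872) had 8189.6, 9951 and 9673 CPM in the control pools and 9081, 11644 and 13030 CPM in the *Mttp-IKO* pools (log2 fold change 0.28, SE 0.247, adjusted p = 0.535, edgeR), where pool 1 fell inside the control range. mt-Co2 (ENSMUSG00000064354), which binds cytochrome c, had 89.3, 88.2 and 97.5 CPM against 123, 107 and 74.7 CPM (log2 fold change 0.15, SE 0.202). mt-Co3 (ENSMUSG00000064358) had 45.6, 38.3 and 37.6 CPM against 50.3, 44.1 and 41.7 CPM (log2 fold change 0.16, SE 0.152). Pools overlapped in all 3, and for mt-Co2 *Mttp-IKO* pool 3 lay below all control pools while pools 1 and 2 lay above them.

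The sums of these genes with their chromosome 1 copies overlapped as well. Gm28661, the copy of mt-Co2, was itself at 92.8 ± 7.18 CPM in control and 98.4 ± 20.2 CPM in *Mttp-IKO* pools, next to 91.7 ± 5.08 and 101.5 ± 24.6 CPM for mt-Co2. The copy on chromosome 2, Gm13341, which shares 35.3% of the windows of mt-Co2 and so can be told apart over part of its length, had 46.9 ± 2.47 CPM in control and 64.9 ± 6.61 CPM in *Mttp-IKO* pools without overlap (log2 fold change 0.47, SE 0.145, adjusted p = 0.109, edgeR).

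ATP synthase takes 2 subunits from this genome, both of its membrane part. mt-Atp8 (ENSMUSG00000064356, MT 7766 to 7969) showed the largest fitted difference of the 18 tested genes and had the lowest counted level among the mRNA genes. It is printed here because its last bases are shared with mt-Atp6, so reads there belong to both genes and were not counted, and because it is short. Capitals mark the 43 bases of overlap (7927 to 7969). Since the genes overlap, these counts cannot tell an mRNA of mt-Atp8 alone from a shared RNA that carries both genes. The same limit holds for mt-Nd4l and mt-Nd4.
mt-Atp8: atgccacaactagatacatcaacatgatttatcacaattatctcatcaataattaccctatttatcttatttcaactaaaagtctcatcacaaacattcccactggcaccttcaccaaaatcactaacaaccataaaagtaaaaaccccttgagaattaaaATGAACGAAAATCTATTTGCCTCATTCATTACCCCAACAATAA
mt-Atp8 had 63, 25 and 14 reads in the control pools and 164, 108 and 59 reads in the *Mttp-IKO* pools, or 1.56, 0.693 and 0.437 CPM against 5.29, 3.70 and 2.47 CPM. All *Mttp-IKO* pools were above all control pools, although levels within each genotype differed more than for the other mRNA genes. The log2 fold change was 2.07 (SE 0.500, adjusted p = 0.0615, unadjusted p = 0.00313, edgeR).

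It passed the threshold under 3 of the 15 alternatives (DESeq2, no filter on low counts, and the replicate block), and adjusted p ranged from 0.000830 to 0.203. Without *Mttp-IKO* pool 3 the log2 fold change was 2.31 (adjusted p = 0.0506, edgeR), and over the fits that leave out 1 pool each it was 1.74 to 2.73. No window of mt-Atp8 was found in an annotated nuclear transcript. The search covers annotated transcripts only, however, and between Gm10925 and Gm28661 lie 233 bases without annotation where the mitochondrial genome has 230 between mt-Atp6 and mt-Co2, the interval that holds the part of mt-Atp8 outside the overlap. That sequence was not compared here.

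mt-Atp6 (ENSMUSG00000064357, MT 7927 to 8607), the proton channel subunit, had 60.1, 59.9 and 56.3 CPM in the control pools and 72.4, 77.5 and 58.9 CPM in the *Mttp-IKO* pools. Pool 3 alone fell among the control pools, and the log2 fold change was 0.24 (SE 0.154, adjusted p = 0.381, edgeR). Its copy Gm10925 had 105 ± 13.2 CPM in control and 174 ± 30.5 CPM in *Mttp-IKO* pools without overlap (log2 fold change 0.74, SE 0.191, adjusted p = 0.0731, edgeR). Together they had 163 ± 15.3 CPM in control and 244 ± 40.1 CPM in *Mttp-IKO* pools (SD, n = 3 pools each), also without overlap.

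Because all mRNA genes of a strand come from 1 precursor, their proportions within a pool were also compared, which needs no scaling between pools. This reason does not cover mt-Nd6, which lies on the other strand but is included below. mt-Cytb, chosen as the reference after its values were seen, gave 25.0%, 24.1% and 23.5% of the mitochondrial mRNA reads in control pools and 21.2%, 19.4% and 15.7% in *Mttp-IKO* pools, lower in every *Mttp-IKO* pool. mt-Nd5 gave 12.99%, 12.5% and 12.0% in control pools and 13.6%, 13.5% and 17.4% in *Mttp-IKO* pools, higher in every one. mt-Nd1 gave 13.2%, 13.2% and 14.5% against 18.8%, 21.4% and 12.7%, where pool 3 fell below the control pools.

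Per mt-Cytb read of the same pool, mt-Nd1 had 0.530, 0.549 and 0.617 reads in the control pools and 0.885, 1.10 and 0.811 reads in the *Mttp-IKO* pools. mt-Nd5 had 0.520, 0.519 and 0.511 against 0.641, 0.694 and 1.11 reads, and mt-Co1 had 1.22, 1.32 and 1.38 against 1.42, 1.53 and 2.35 reads. The control pools lay close together, above all for mt-Nd5, and the *Mttp-IKO* pools above them. Of the other 12 mRNA genes, 8 were higher in this ratio without overlap (mt-Nd1, mt-Co1, mt-Atp8, mt-Atp6, mt-Nd3, mt-Nd4, mt-Nd5 and mt-Nd6), 4 overlapped and 0 were lower. Among all genes tested, 18.6% were higher in the same ratio and 9.92% lower. The 12 ratios share a denominator and are not independent, so 1 gene with a low share moves all of them the same way. mt-Cytb was the only mRNA gene with a fitted log2 fold change below 0, so its choice made these ratios lean upward. The shares over all genes use the same denominator and do not correct for this.

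**Figure D5:**
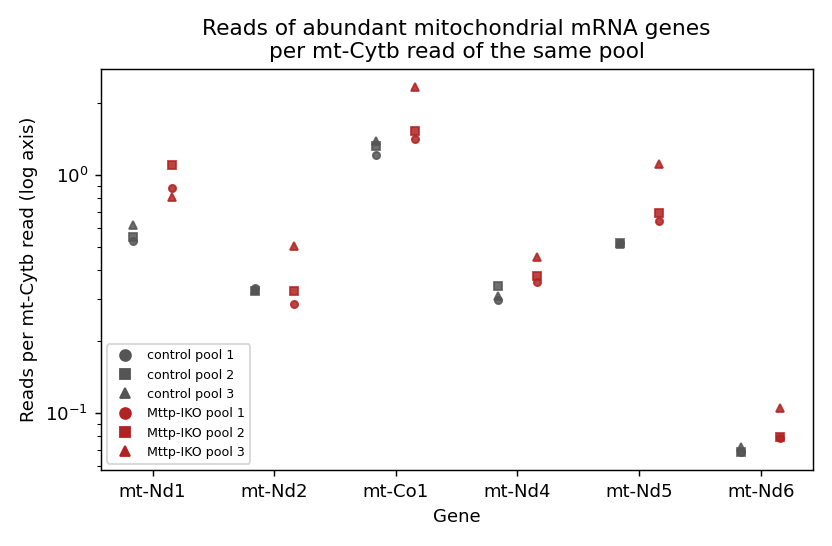
Reads of 6 abundant mitochondrial mRNA genes per mt-Cytb read of the same pool (log axis). The reference mt-Cytb was chosen after its values were seen, and that choice makes the ratios lean upward in *Mttp-IKO* pools. Gray symbols are control and red symbols *Mttp-IKO* pools. The control pools of mt-Nd5 lie between 0.511 and 0.520 and the *Mttp-IKO* pools between 0.641 and 1.11, whereas the pools of mt-Nd2 overlap.

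The rRNA genes encode the 12S (mt-Rnr1) and 16S (mt-Rnr2) RNAs of the mitochondrial ribosome. The libraries had been depleted of ribosomal RNA, so these values are what remained after that step and not their level in the liver. mt-Rnr1 (ENSMUSG00000064337, MT 70 to 1024) had 38.5, 9.43 and 6.59 CPM in the control pools and 1.87, 8.02 and 30.9 CPM in the *Mttp-IKO* pools. mt-Rnr2 (ENSMUSG00000064339, MT 1094 to 2675) had 23.4, 11.9 and 6.47 CPM against 2.87, 7.99 and 38.8 CPM. The pools of both genes ran in the same order but for the uppermost pair, with control pool 1 and *Mttp-IKO* pool 3 high and *Mttp-IKO* pool 1 low.

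Neither differed between genotypes beyond that spread: the log2 fold change was -0.43 (SE 0.947, adjusted p = 0.826, edgeR) for mt-Rnr1 and 0.24 (SE 0.842, adjusted p = 0.893, edgeR) for mt-Rnr2. Without *Mttp-IKO* pool 3 the values were -1.88 (adjusted p = 0.243, edgeR) and -1.36 (adjusted p = 0.217, edgeR), so the sign of mt-Rnr2 turned with 1 pool. Per kb the mean levels over 6 pools were 16.6 and 9.65 CPM, in the range of mt-Atp8 and far below the abundant mRNA genes.

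The tRNA genes, which bring the amino acids to the mitochondrial ribosome and mark where the precursor is cut, gave few reads. Of the 22, 5 had 0 reads in all pools (mt-Tf, mt-Tv, mt-Ti, mt-Td and mt-Tg), 14 had 1 to 19 reads in all and were not tested, and 3 were tested. mt-Tp alone held 2619 of the 2860 tRNA reads, 91.6%, and the 8 tRNA genes on the minus strand held 2803 (184 without mt-Tp) against 57 on the 14 genes of the plus strand. Whether the authors' counting used the strand is not given in the sources used here. Without strand, reads of the opposite precursor over a tRNA gene cannot be told from the tRNA itself.

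The sequences of the 3 tested genes, all on the minus strand, show how short they are, and the anticodon is in capitals. It was found as the triplet for that amino acid in the middle of a 7-base loop that a paired stem closes. mt-Tp (MT 15356 to 15422) is the tRNA for proline, mt-Tn (MT 5089 to 5159) that for asparagine and mt-Tc (MT 5192 to 5257) that for cysteine, and the transcripts are those of GENCODE M21.
mt-Tp: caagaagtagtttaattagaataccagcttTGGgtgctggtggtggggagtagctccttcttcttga
mt-Tn: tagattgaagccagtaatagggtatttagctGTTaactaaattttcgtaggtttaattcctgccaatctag
mt-Tc: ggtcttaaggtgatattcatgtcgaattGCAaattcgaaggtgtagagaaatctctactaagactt
mt-Tp (ENSMUSG00000064372) had 375, 399 and 228 reads in the control pools and 717, 652 and 248 reads in the *Mttp-IKO* pools, or 9.30, 11.1 and 7.12 CPM against 23.1, 22.4 and 10.4 CPM. *Mttp-IKO* pools 1 and 2 lay above all control pools, and pool 3, the one low in small RNAs, lay among them.

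The log2 fold change of mt-Tp was 1.02 (SE 0.318, adjusted p = 0.111, edgeR) with all pools and 1.31 (adjusted p = 0.0235, edgeR) without *Mttp-IKO* pool 3, and over the 15 alternatives adjusted p ranged from 0.0235 to 0.371. mt-Tn had 0.273, 0.444 and 0.500 CPM against 0.226, 0.480 and 0.797 CPM (log2 fold change 0.29, SE 0.542). mt-Tc had 0.273, 0.305 and 0.437 CPM against 0.0967, 0.514 and 0.545 CPM (log2 fold change 0.17, SE 0.629). For both, *Mttp-IKO* pools lay on both sides of the control pools. The next most read, mt-Tl1 (leucine), had 5, 5 and 2 reads in control and 2, 5 and 0 reads in *Mttp-IKO* pools, mt-Te (glutamate) 3, 4 and 1 against 1, 2 and 3 reads, and mt-Tm (methionine) 2, 3 and 0 against 1, 3 and 2 reads, counts at which a difference was not detectable.

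Without *Mttp-IKO* pool 3, the pool low in short RNAs, 2 of the 18 genes had an adjusted p under 0.05 by edgeR (mt-Nd3 and mt-Tp, both higher), where 4.84% of all genes did, and 6 had an unadjusted p under 0.05, where 26.2% of all genes did. Every remaining *Mttp-IKO* pool was above every control pool in 7 genes, the 4 named above with mt-Co2, mt-Atp6 and mt-Tp, or 38.9% of those tested against 22.4% of all genes in that setting, and below in 0, against 22.9%. The median log2 fold change over the mRNA genes was then 0.23, and the log2 ratio of their share of reads was 0.054, against 0.069 with all pools. Why that pool stands apart was not tested.

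The nuclear genes that make, cut, modify and translate mitochondrial RNA were read from a list of 79, all of which were tested. None was called by edgeR (lowest adjusted p = 0.0648, edgeR), and 13 had an unadjusted p under 0.05, a lower share than the 23.0% of all genes. Every *Mttp-IKO* pool lay above every control pool in 15 and below in 5, beside 14.5% and 16.5% of all genes. Of the 79, 55 had a log2 fold change above 0 and 24 below, beside 8730 above and 8557 below over all genes, and the median was 0.15 beside 0.0057. The median was 0.28 over 13 genes for cutting and processing of transcripts, 0.21 over 12 for tRNA modification, 0.22 over 7 for transcriptional regulators, 0.092 over 17 aminoacyl-tRNA synthetases, 0.047 over 9 for transcription, 0.026 over 7 for RNA stability and decay, 0.0082 over 6 for rRNA modification and 0.0042 over 8 for replication of the DNA. Without *Mttp-IKO* pool 3 the median over the 79 was 0.20.

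Polrmt, the RNA polymerase of mitochondria, had 30.8, 31.3 and 28.3 CPM in the control pools and 36.0, 39.3 and 43.4 CPM in the *Mttp-IKO* pools, without overlap (log2 fold change 0.39, SE 0.141, adjusted p = 0.154, edgeR). Its partners Tfam, which packs the DNA and opens the promoters, and Tfb2m had log2 fold changes of 0.047 (SE 0.169) and 0.21 (SE 0.173) with overlapping pools. Elac2, which cuts the 3' ends of the tRNAs from the precursor, had 27.9, 34.2 and 31.7 CPM against 33.2, 34.4 and 31.6 CPM (log2 fold change 0.082, SE 0.142, adjusted p = 0.770, edgeR).

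Lrpprc and Slirp form a complex that protects mitochondrial mRNAs from decay. Lrpprc had 104, 132 and 118 CPM in the control pools and 156, 148 and 157 CPM in the *Mttp-IKO* pools, higher without overlap (log2 fold change 0.39, SE 0.157, adjusted p = 0.194, edgeR). Slirp had 5.23, 5.41 and 5.59 CPM against 4.48, 3.74 and 2.68 CPM, lower without overlap (log2 fold change -0.57, SE 0.241, adjusted p = 0.208, edgeR), and -0.39 without *Mttp-IKO* pool 3. The fitted values of the pair thus had opposite signs, and neither passed the threshold.

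Ppargc1a, the coactivator PGC-1alpha that raises the expression of mitochondrial genes, had 29.0, 40.6 and 38.1 CPM in the control pools and 45.5, 98.5 and 95.7 CPM in the *Mttp-IKO* pools. The genotypes did not overlap (log2 fold change 1.15, SE 0.298, adjusted p = 0.0724, edgeR), and it passed the threshold under 4 of the 15 alternatives, with adjusted p from 0.00526 to 0.252. The nuclear partners of the mitochondrially encoded subunits, 71 genes of complexes I, III, IV and ATP synthase, had a median of -0.31 with 65 below 0. Without *Mttp-IKO* pool 3 that median was 0.023, with 39 above 0 and 32 below.

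Markers of several cell types moved with genotype beside these values. The summed level of the hepatocyte markers did not overlap and was higher in *Mttp-IKO* pools, with 4 of 7 markers higher and 1 lower without overlap. Those of recruited macrophages were 212 to 682 CPM in control and 51.0 to 124 CPM in *Mttp-IKO* pools, with 5 of 5 lower without overlap. Those of stellate cells were 494 to 808 and 245 to 324 CPM, with 4 of 5 lower without overlap. Over all genes tested, 14.5% were higher and 16.5% lower without overlap. Sums of Kupffer cell (288 to 426 and 222 to 552 CPM), endothelial (292 to 350 and 304 to 355 CPM), cholangiocyte (68.7 to 193 and 48.6 to 94.0 CPM) and erythroid markers (272 to 372 and 200 to 327 CPM) overlapped. Within these sets, 1 of 5 Kupffer cell markers (Timd4) and 1 of 5 endothelial markers (Clec4g) were higher without overlap. Among the cholangiocyte markers, 1 of 5 (Epcam) was lower without overlap. Striated muscle markers reached 70.2 CPM in control pool 1 and 572 CPM in control pool 2, against 0.419 to 0.548 CPM in the other pools. Of these 5 markers, 2 (Myh4 and Tnnt3) were lower without overlap, with only 0.0625 and 0.156 CPM in control pool 3. No marker was at 0 in all pools, and the part of these differences in the mitochondrial values was not tested.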

How the data were processed

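Total liver RNA was depleted of ribosomal RNA (KAPA RiboErase) and sequenced. Per the methods, the authors aligned reads with STAR 2.5.1a to the Ensembl release 76 assembly (GRCm38) and deposited, for each pool, the read count per gene from featureCounts 1.4.6-p5, as uniquely aligned unambiguous reads. The authors also deposited CPM, which divides a count by the reads of its pool, and RPKM, which divides CPM by gene length. Both follow from the counts, so only counts were tested. The table of all pools holds 40481 of the 41388 genes of the pool files, with equal counts, and its 276 duplicate lines were left out.

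Samples were grouped by their labels. Genes were kept by filterByExpr of edgeR 4.0.16 (minimum count 10, minimum total 15, R 4.3.3), scaled by TMM (factors 0.898 to 1.11) and compared with glmQLFit and glmQLFTest, genotype as the only term, all 6 pools, Benjamini-Hochberg adjustment over 17287 genes and a threshold of 0.05. Alternatives were other scalings, no filter, DESeq2 1.42.0, limma-voom (limma 3.58.1), the replicate number as a block, and leaving out each pool. Scripts were tested on simulated counts, where edgeR recovered 190, limma-voom 185 and DESeq2 198 of 200 changed genes. Unchanged genes called there were 13, 11 and 47. The genes named were all mitochondrial mRNA and rRNA genes, the 6 tRNA genes with the highest mean count and any past the threshold, and 7 nuclear genes, beside the nuclear copies that share windows; the members and the lists were chosen with earlier results of these data known. The reference mt-Cytb and the sums with nuclear copies were chosen after seeing the values. Of the hepatocyte markers listed, 1 (Tf) did not match a symbol here. Proteins and a genome sequence were not used here.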

Additional observations from a re-analysis of the deposited data

How the results depend on the processing

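Across alternatives the number of genes past the threshold went from 694 to 1995 with DESeq2 and 428 with limma-voom, and lay between 0 (without *Mttp-IKO* replicate 2) and 892 (without control replicate 2) when 1 pool was left out. It was 24 without control replicate 1, 21 without control replicate 3, 55 without *Mttp-IKO* replicate 1 and 864 without *Mttp-IKO* replicate 3. Most calls were thus lost without control pool 1 or 3 or *Mttp-IKO* pool 1 or 2. A fit with 1 pool fewer also has less power, and the part of each was not tested. At an unadjusted p under 0.05 there were 3977 genes with all pools, 2476 and 2539 without control replicates 1 and 3, and 4457 and 3221 without *Mttp-IKO* replicates 1 and 2. With no filter on low counts, 1 of 32 mitochondrial genes passed (mt-Atp8), beside 990 of all 27802 genes. DESeq2 called 3 of 18, beside 11.5% of all genes. When 1 pool was left out, 0 to 2 of 18 passed. The 2 passed without *Mttp-IKO* replicate 3, where 4.84% of all genes did. With the replicate number as a block, 592 of all 17287 genes and 1 of 18 mitochondrial genes (mt-Atp8, adjusted p = 0.0305, edgeR) passed. The deviations of the pools from their genotype mean, gene by gene, were also correlated between genotypes over 12406 genes. They correlated at 0.193, 0.177 and -0.0011 for pools 1 to 3 of the same number, and at -0.212 to 0.0228 for pools of different numbers. The value of pool 3 lay inside that range, so the numbers are not shown to pair the pools. With total counts only, the median log2 fold change of the mRNA genes moved to 0.014.

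The sign of some fitted log2 fold changes turned, and the cause was not tested. Over the fits that leave out 1 pool, they ranged from -1.88 to 0.72 for mt-Rnr1, -1.36 to 0.80 for mt-Rnr2, -0.11 to 0.17 for mt-Nd2, -0.19 to 0.65 for mt-Tn, -0.15 to 0.65 for mt-Tc, -0.014 to 0.33 for mt-Co2, -0.011 to 0.23 for mt-Nd4l, -0.071 to 0.15 for Tfam and -0.013 to 0.13 for Elac2. With total counts only, mt-Nd2 had -0.17, mt-Tc -0.018, mt-Co2 -0.030, mt-Co3 -0.019, mt-Nd4l -0.055, Tfam -0.13 and Elac2 -0.095. With limma-voom, mt-Rnr2 had -0.45, mt-Nd2 -0.00037 and mt-Tc -0.13, and with the block mt-Rnr2 had -0.37 and mt-Nd2 -0.0033. mt-Nd2 had -0.012 with upper quartile factors and -0.014 with no filter. The nuclear medians without *Mttp-IKO* replicate 3 were added after seeing the data. Depth limits the tRNA genes other than mt-Tp.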

Other observations

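Copies of other stretches of the mitochondrial genome were read too, and none passed the threshold by edgeR. Gm13339 (chromosome 2, 22590024 to 22590533), which shares 8.19% of the windows of mt-Nd2, had 0.967, 1.11 and 0.812 CPM in the control pools and 1.64, 1.30 and 3.40 CPM in the *Mttp-IKO* pools, higher without overlap (log2 fold change 1.12, SE 0.416, adjusted p = 0.163, edgeR). Gm28439, the copy of mt-Nd4 on chromosome 1, had 24.2 ± 0.264 CPM in control and 41.6 ± 13.2 CPM in the *Mttp-IKO* pools, also without overlap (log2 fold change 0.78, SE 0.220, adjusted p = 0.0898, edgeR). Gm13340, the copy of mt-Co1 on chromosome 2, had 156 ± 19.2 and 199 ± 36.0 CPM, with overlap. Of the pair that share windows with mt-Nd5, Gm4076 on chromosome 13 had 13.5 ± 0.792 and 15.3 ± 4.62 CPM and Gm11407 on chromosome 4 had 9.86 ± 1.81 and 12.0 ± 1.41 CPM (SD, n = 3 pools each), both with overlap.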
